A study of Mus musculus with 12 samples.

Results

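RNA was sequenced from 3T3 mouse embryonic fibroblasts with wild-type p53 (WT), an immortal line that grows attached to plastic, after 18 h in medium with or without glutamine. The comparison holds 6 of the 12 libraries of the series: 3 from cells in complete medium, DMEM that held 2 mM glutamine beside 25 mM glucose, and 3 from cells in the same medium at 0 mM glutamine (glutamine-free). Both groups carried the same p53 genotype and the same glucose, and no other agent is named in the labels. The other 6 libraries, from a p53 -/- 3T3 line (p53-null) in the same media, serve below only to show where the WT response differed. Of 19439 gene entries, 10882 reached 1 RPKM (read counts scaled by transcript length and library size) in at least 3 of the 6 WT libraries and were tested. Changes are differences of log2(RPKM + 1), glutamine-free minus complete, with standard errors (SE). For genes with levels around 1 RPKM or less, differences on this scale are smaller than the true ratios. A gene was called when its limma p-value, adjusted over all tested genes, was under 0.05. The labels name 1 line and do not state whether the 3 libraries of a medium were grown apart, so the p-values rest on a spread between libraries that may be no more than technical.

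Glutamine is the most abundant free amino acid in blood and in most culture media. It gives nitrogen for nucleotides, asparagine and amino sugars, gives carbon to the tricarboxylic acid cycle after deamination to glutamate, and is exchanged for other amino acids at the cell surface. Cells sense a lack of amino acids mainly through the kinase GCN2, which binds uncharged tRNA and phosphorylates the initiation factor eIF2, and through the complex mTORC1, which is active on lysosomes when amino acids are present. Phosphorylated eIF2 slows general translation and favours translation of ATF4, a transcription factor of the integrated stress response (ISR), whose targets include amino acid transporters, biosynthetic enzymes and aminoacyl-tRNA synthetases.

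The 6 libraries had sums of 313165 to 319735 RPKM and 10306 to 10671 genes at 1 RPKM or more. Libraries of the same medium correlated over genes at r = 0.998 to 0.999, and libraries of different media at 0.874 to 0.876 (log2 scale, 11461 genes of all 12 libraries). The WT glutamine-free libraries correlated with the p53-null glutamine-free libraries at 0.877 to 0.878, a value as high as with WT cells in complete medium. Genes that tell the lines apart were therefore looked at. Of 18 genes with at least 10 RPKM in every p53-null library and at most 0.5 RPKM in every WT complete library, none reached 10 RPKM in the WT glutamine-free libraries and 15 stayed at 0.5 RPKM or less in all 3. The highest mean among the 18 was 0.871 RPKM. Of 47 genes with the opposite pattern (at least 10 RPKM in every WT complete and at most 0.5 RPKM in every p53-null library), 12 stayed at 10 RPKM or more in all 3 glutamine-free libraries, and 1 was at 0.5 RPKM or less in all 3. Trp53, which encodes p53, was at 58.7, 57.8 and 59.0 RPKM in complete and 109, 112 and 114 RPKM in glutamine-free medium. The p53-null libraries held reads of Trp53 too, at 27.9 to 29.6 RPKM in complete and 33.9 to 35.2 RPKM in glutamine-free medium. A value for the whole transcript does not show which part of a gene was deleted, so these levels do not check the genotype, and the line is called p53-null as labelled. The WT change of Trp53 was 0.92 ± 0.019 (SE) (adjusted p = 1.1e-10), and an exact two-sided permutation test of its RPKM gave p = 0.1, the smallest that 3 against 3 libraries allow.

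The cells were checked against markers. Of 14 fibroblast markers found in the table, 11 were tested and 3 (Thy1, Fap and Lum) lay between 0 and 0.0351 RPKM in all 6 libraries. The 11 were present in both media, and all of them were lower without glutamine. Vim, the intermediate filament protein vimentin, went from 763, 754 and 763 to 72.0, 71.7 and 73.4 RPKM, and the fibronectin gene Fn1 from 904, 907 and 907 to 495, 499 and 501 RPKM. Blood cell and endothelial markers had no tested member. Their summed levels were 1.002 to 1.686 RPKM in complete and 0.779 to 0.885 RPKM in glutamine-free medium for blood cells, nearly all Cd68, and 0.0731 to 0.0973 and 0.585 to 0.657 RPKM for endothelium. The summed epithelial markers were at 3.49 to 3.75 RPKM in complete and 98.4 to 106.4 RPKM in glutamine-free medium, mostly Cdsn, while Epcam was at or under 0.0119 RPKM, Krt18 at or under 0.0183 RPKM and Cldn4 at 0 in every WT library. Neural markers, at 39.6 to 40.3 and 91.1 to 92.2 RPKM in sum, went both ways: Avil was higher, Tubb3 was 0.28 on the log2 scale, Stmn2 was lower at -2.74, and Snap25, Gfap and Sox10 were at or near 0. Among muscle markers (2.001 to 2.303 and 0.490 to 0.657 RPKM in sum) and fat and mesothelial markers (24.1 to 26.3 and 1.21 to 1.84 RPKM), Tnnt2, Msln and Fabp4 were lower and Myog, Tnnt1 and Wt1 were at 0 throughout. The part of such cells in the changes below was not tested. In bulk RNA, fewer cells of a type and less RNA per cell cannot be told apart.

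Most tested genes differed between the media. Of the 10882 genes, 9910 were called (91.1%), 5099 higher (46.9%) and 4811 lower (44.2%) without glutamine. A second count asked for 1 log2 unit or more in either direction, called 2-fold below, and 2593 genes passed it (23.8%), 1117 higher (10.3%) and 1476 lower (13.6%). Changes beyond 8-fold were reached by 23 genes upward and 58 downward, while 5127 genes (47.1%) stayed within 0.5 log2 units. The 3 and 3 libraries did not overlap for 9951 genes (91.4%), so a lack of overlap by itself sets no gene apart here. The same holds for a call. Counts of called list members below are to be read beside the shares of 46.9% higher and 44.2% lower. The filter also let in genes through 1 medium alone, for which a difference is built in. Of the tested genes 236 were under 1 RPKM in all complete libraries, 99 of them at least 2-fold higher without glutamine, and 532 were under 1 RPKM in all glutamine-free libraries, 309 of them at least 2-fold lower. Car6, Avil, Apobr, Cox6a2, Slc7a3, Apoe and Fgf21 below are of the first kind. Ifit1, Ifit3, Stat2, P4ha3, Prelp, Ltbp2, Vegfd, Steap4, Galnt15 and Tnnt2 are among those of the second kind. The calls of both kinds are no support for a difference, and the list counts below include them. The median change over all genes was 0.03. Centring each library on the median ratio moved that median to -0.07, a shift of 0.10, and the direction of smaller changes depends on the scaling. The 2-fold higher genes had a median of 8.46 RPKM in complete and 25.3 RPKM in glutamine-free medium, and the 2-fold lower genes 12.4 and 3.35 RPKM.

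**Figure D1:**
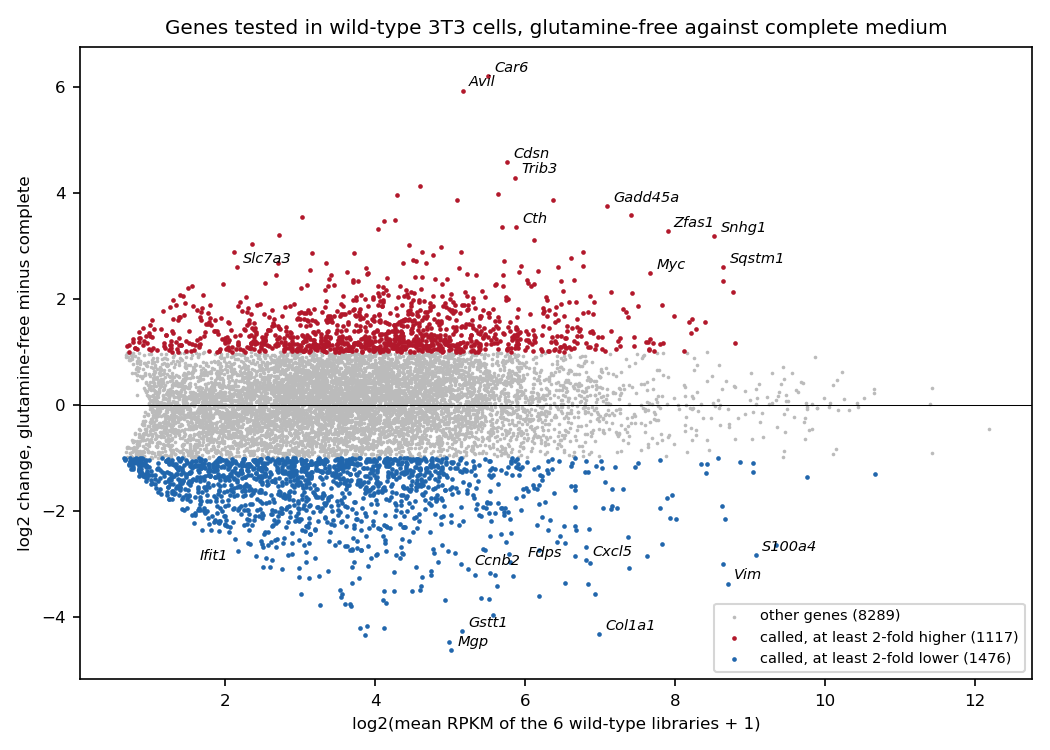
Each point is 1 of the 10882 tested genes. The horizontal axis is log2 of the mean RPKM of the 6 WT libraries plus 1, the vertical axis the log2 change, glutamine-free minus complete. Red points are the 1117 genes called at least 2-fold higher, blue the 1476 at least 2-fold lower, and grey all others. Car6 and Avil stand above all other genes, and falls of more than 2-fold reach up to the most abundant matrix and cytoskeletal genes such as Vim.

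The integrated stress response split by role. Of 22 tested members, 19 were called higher and 3 lower, 15 and 0 of them by at least 2-fold, with a median log2 change of 1.88, against a median of 0.03 over all genes tested. The sensor kinases did not follow the rest: of 4, only the heme-regulated kinase gene Eif2ak1 was higher, at 0.30, while Eif2ak4, which encodes GCN2, went from 7.59, 7.63 and 7.33 to 5.76, 5.88 and 5.92 RPKM (-0.31), and Eif2ak2 and Eif2ak3 were at -0.82 and -0.74. All 7 transcription factors rose. Atf4, a gene of chromosome 15 (80255184 to 80257541, plus strand, GRCm38), was at 119, 121 and 118 RPKM in complete and 379, 388 and 390.0 RPKM in glutamine-free medium, a change of 1.69 ± 0.017 (SE), and had the highest RPKM of the 7. Ddit3, which encodes the ATF4 partner CHOP, went from 24.0, 24.3 and 23.0 to 166, 172 and 170.2 RPKM, 7.12-fold in mean RPKM. Atf5 went from 7.89, 8.48 and 7.99 to 90.7, 95.2 and 93.4 RPKM, 11.5-fold. Both were low in all 3 complete and high in all 3 glutamine-free libraries, with no overlap. The feedback genes act on the pathway itself: Ppp1r15a, whose product directs a phosphatase to eIF2, changed by 3.98 ± 0.020 (SE) and its constitutive relative Ppp1r15b by 0.98. The pseudokinase gene Trib3, whose product inhibits ATF4, had the largest change of the list, 4.29 ± 0.066 (SE). Among targets, Chac1, which breaks down glutathione, went from 6.01, 5.88 and 5.44 to 46.3, 46.9 and 47.9 RPKM, and Vegfa, the angiogenic growth factor, from 22.9, 22.8 and 22.7 to 116, 113 and 114 RPKM. Of the 2 secreted factors, Gdf15 was not tested and Fgf21 changed by 1.25.

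The promoters of these genes were read for an 8-base core of the element at which ATF4 binds with C/EBP partners, TGATGNAA on either strand, in windows from 250 bases before to 50 after annotated start sites (RefSeq sequences, GRCm38.p6). Of 24 windows of 20 ISR list genes, 25% held it, and of 12 windows of 12 cytosolic synthetase genes, 41.7%. It was in 4.49% of windows of the 2-fold higher genes, 1.81% of those of the 2-fold lower genes and 2.11% of the 10768 windows of all tested genes. The stretches below are shown because they hold matches before the start site of genes of the stress response and its amino acid supply, and of Avil, and were chosen for holding one. Each is written 5′ to 3′ along the gene's strand, with the match in capitals.
Atf3, chr1:191183400-191183479, minus strand: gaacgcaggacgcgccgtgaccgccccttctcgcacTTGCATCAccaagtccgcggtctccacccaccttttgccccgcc
Chac1, chr2:119351013-119351092, plus strand: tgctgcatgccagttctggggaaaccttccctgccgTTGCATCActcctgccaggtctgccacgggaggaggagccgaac
Slc7a11, chr3:50443636-50443715, minus strand: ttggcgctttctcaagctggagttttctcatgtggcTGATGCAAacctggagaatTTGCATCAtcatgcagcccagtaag
Nupr1, chr7:126625537-126625616, minus strand: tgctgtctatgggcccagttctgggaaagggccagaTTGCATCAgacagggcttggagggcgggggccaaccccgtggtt
Asns, chr6:7693210-7693268, minus strand: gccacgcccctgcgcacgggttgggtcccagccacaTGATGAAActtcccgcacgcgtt
Avil, chr10:127000656-127000708, plus strand: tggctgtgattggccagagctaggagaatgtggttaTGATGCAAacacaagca
Slc7a11 held the element on both strands, 2 matches that began 19 bases apart. In Avil the match began 17 bases before the start site. A match says only that the letters are present. Genes with changes as large had none in their windows, among them Ppp1r15a, Ddit3, Sesn2, Gadd45a, Slc6a9 and Car6, and in Trib3 the only match began 14 bases after the start site.

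Avil and Car6 were the largest rises of the whole table. Car6, a gene of chromosome 4 (150187015 to 150201332, minus strand) for a carbonic anhydrase that is secreted, was at 0.223, 0.142 and 0.268 RPKM in the 3 complete libraries and 89.1, 88.0 and 89.9 RPKM in the 3 glutamine-free libraries. Avil, on chromosome 10 (127000709 to 127020994, plus strand), encodes advillin, an actin-severing protein known from sensory neurons. It was at 0.226, 0.144 and 0.113 RPKM in complete and 70.3, 70.3 and 69.4 RPKM in glutamine-free medium. Both genes were at the edge of detection in all complete libraries and well read in all glutamine-free ones, so the ratios of their means, 422 and 434, rest on very low denominators. Their log2 changes were 6.22 ± 0.039 (SE) and 5.94 ± 0.038 (SE), given as a description. Cdsn, for the adhesion protein corneodesmosin of the outer skin, went from 3.27, 3.46 and 3.27 to 98.3, 104 and 106 RPKM. Other genes among the 20 largest rises that no list held were Apobr, for a lipoprotein receptor (0.262, 0.318 and 0.253 to 14, 14 and 13.9 RPKM), Stbd1, for a glycogen-binding protein (3.50), Acot2, for a mitochondrial acyl-CoA thioesterase (3.32), Neto2, for a glutamate receptor subunit partner (3.20) and Angptl6 (3.97). Cox6a2, the muscle form of a cytochrome oxidase subunit, was at 0.116, 0.111 and 0.111 RPKM in complete and 7.93, 7.85 and 8.76 RPKM in glutamine-free medium.

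All 4 cationic amino acid carriers and 9 of 15 neutral ones rose, and the acidic carriers went both ways. Of 24 tested members, 15 were called higher and 8 lower, 11 and 2 of them by at least 2-fold, with a median log2 change of 0.74. The cystine-glutamate exchanger gene Slc7a11 went from 3.88, 3.74 and 3.87 to 39.0, 37.9 and 37.0 RPKM. Slc7a5, the large neutral amino acid exchanger that uses intracellular glutamine, went from 30.0, 28.9 and 29.8 to 182, 192 and 191 RPKM, and its partner chain Slc3a2 changed by 1.93. The glutamine carriers Slc1a5, Slc38a1 and Slc38a2 changed by 2.51, 2.59 and 1.07. The glycine carrier Slc6a9 changed by 3.11 ± 0.038 (SE), with 30.2% of its exon length under a gene on the other strand, whose reads could not be told apart because the library kit keeps no strand. Among cationic carriers Slc7a3, the arginine carrier named in the title of the series, had the lowest level, at 0.200, 0.251 and 0.334 RPKM in complete and 6.19, 6.70 and 7.01 RPKM in glutamine-free medium (2.60 ± 0.055 (SE), exact permutation p = 0.1 on RPKM). That p is the smallest that 3 against 3 libraries allow. Slc7a3 passed the filter through glutamine-free medium alone, so its call adds no support to the count of 4 cationic carriers. Slc7a1 went from 12.8, 12.9 and 12.8 to 89.0, 90.8 and 90.6 RPKM. Against these, Slc1a3, a glutamate and aspartate carrier, fell from 22.0, 22.8 and 22.0 to 3.11, 2.80 and 2.86 RPKM, the mitochondrial aspartate-glutamate carriers Slc25a12 and Slc25a13 fell by 0.48 and 0.71 on the log2 scale, and Slc38a4 was at -1.61.

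Enzymes that make amino acids rose along most branches but not that of arginine. Of 24 tested members, 18 were called higher and 5 lower, 14 and 3 of them by at least 2-fold, with a median log2 change of 1.12. Cth, which makes cysteine from cystathionine, had the largest rise, from 9.68, 9.31 and 9.52 to 107, 106 and 107 RPKM. Pycr1, the last step to proline, went from 6.33, 6.0 and 6.45 to 37.3, 38.1 and 38.5 RPKM, Gpt2, the mitochondrial alanine transaminase, from 21, 21.1 and 21.3 to 107, 108 and 111 RPKM, and Asns, which makes asparagine with glutamine as the nitrogen donor, from 77.5, 77.1 and 78.0 to 282, 285 and 289 RPKM. All 5 serine and glycine enzymes rose, with changes from 0.95 (Shmt1) to 1.79 (Psph). The 2 tested enzymes of arginine synthesis fell: Ass1 by 1.85 on the log2 scale, and Asl from 13.2, 13.5 and 13.6 to 2.25, 2.70 and 2.76 RPKM. Glul, glutamine synthetase, was lower as well, at -0.75, and Glud1 did not pass the test (0.02). Oat, which links ornithine to proline, was at -1.21.

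One-carbon and tRNA charging genes rose with these enzymes. Of 18 tested folate enzymes and carriers, 13 were called higher and 1 lower, 7 and 0 by at least 2-fold. The mitochondrial enzyme genes Mthfd2 and Aldh1l2 rose, Mthfd2 from 45.3, 43.6 and 44.7 to 188, 188 and 187 RPKM and Aldh1l2 from 16.1, 16.0 and 16.4 to 107, 104 and 105 RPKM, while Mthfd2l (-0.04) and Tyms (-0.04) did not pass. Of 20 cytosolic aminoacyl-tRNA synthetases, which charge tRNAs with amino acids, 17 were called higher and 2 lower, 11 and 0 by at least 2-fold, with a median of 1.26. The exceptions included the enzyme for glutamine itself, Qars, which went from 42.6, 43.3 and 41.1 to 21.3, 22.1 and 22.0 RPKM (-0.92), and Kars (-0.48). Mars did not pass. The mitochondrial synthetases were split, 8 of 17 higher and 7 lower with a median of 0.01. Mars2 and Yars2 had the largest rises, 1.13 and 1.12, and Aars2 the largest fall, -0.74.

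Genes for making ribosomes and starting translation were higher. All 23 tested ribosome biogenesis genes were called higher, 17 of them at least 2-fold, with a median of 1.34. Rrp12 went from 2.70, 2.59 and 2.76 to 20.03, 20.01 and 20.1 RPKM and the nucleolar methyltransferase gene Nop2 from 22.6, 22.3 and 22.8 to 110.2, 109 and 111 RPKM, while Polr1c had the smallest rise, 0.11, which was -0.01 under quantile normalization. Of 25 initiation genes, 22 were called higher and 2 lower, with a median of 0.66 and 7 rises of at least 2-fold. Eif1 went from 171, 170.1 and 168 to 480.2, 504 and 519 RPKM, the eIF2B subunit gene Eif2b3 changed by 1.5, and Eif4b (-0.49) and Eif2b4 (-0.19) were lower. Non-coding host genes of small nucleolar RNAs, whose spliced transcripts are degraded when they are translated, were among the largest rises of abundant genes. Of 12 hosts 9 were called higher, 8 at least 2-fold, and 2 lower. Snhg1 went from 71.4, 72.1 and 73.1 to 663, 663 and 663 RPKM, Snhg12 from 25.7, 25.1 and 24.9 to 307, 316 and 319 RPKM, and Zfas1, a host outside the list, from 44.5, 43.1 and 42.9 to 427, 430.5 and 439 RPKM. Snhg18 went the other way, from 20.5, 22.1 and 21.8 to 2.40, 2.31 and 2.41 RPKM. The factors of nonsense-mediated decay, the pathway that removes such transcripts, changed less, with 8 of 10 higher, 1 lower and a median of 0.49.

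**Figure D2:**
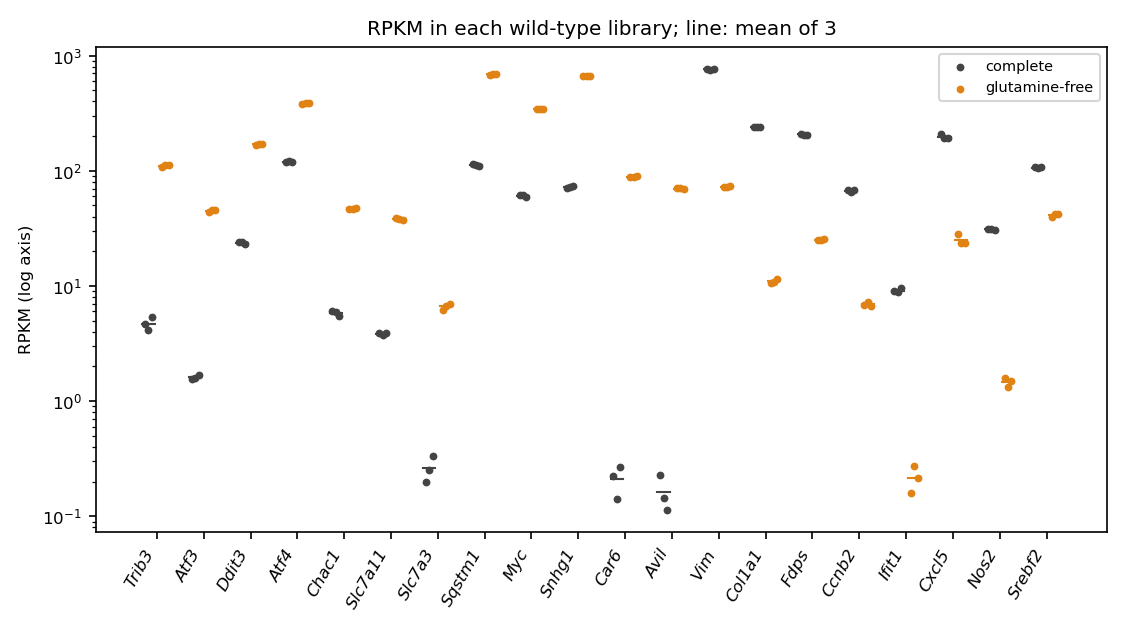
Every point is the RPKM of 1 gene in 1 WT library on a log axis, dark grey for complete and orange for glutamine-free medium, with a short line at the mean of the 3. The 2 groups are separate for all 20 genes drawn, and the points of a group lie close together except near the floor (Slc7a3, Car6 and Avil in complete medium, Ifit1 without glutamine).

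Genes around mTORC1 showed paralogs in opposite directions. Of 32 tested members, 17 were called higher and 14 lower, with a median of 0.16. Sesn2, a leucine sensor that restrains mTORC1, rose from 5.6, 5.28 and 5.39 to 26.4, 29.2 and 28.6 RPKM, while its relative Sesn1 fell from 17.5, 17.3 and 16.8 to 2.84, 2.79 and 2.64 RPKM and Sesn3 was at -1.31. The gene for the arginine sensor CASTOR1, listed as Gatsl3, went from 4.50, 4.39 and 4.68 to 0.994, 1.09 and 1.15 RPKM. Rragb, for a Rag GTPase that brings mTORC1 to the lysosome, went from 2.40, 2.16 and 2.43 to 7.79, 6.79 and 7.60 RPKM, and Mtor itself was at -0.22. Autophagy and lysosome genes were split evenly, 19 of 40 higher and 19 lower, with 1 rise and 4 falls of at least 2-fold. The rise was of Sqstm1, the autophagy receptor p62, on chromosome 11, from 114, 112 and 111 to 678, 690.1 and 689 RPKM. Among the 4 falls were those of Wipi1, which binds the forming autophagosome (40.6, 38.5 and 39.7 to 9.28, 9.76 and 9.01 RPKM), Tfeb, the main transcription factor for lysosomal genes (5.14, 5.31 and 5.61 to 0.966, 1.11 and 1.18 RPKM) and Ctsd, a lysosomal protease (-1.06). Of 19 lysosomal proteins 12 were lower and 7 higher. Txnip, a target of the sugar-sensing factor MondoA, went from 36.6, 36.7 and 36.2 to 17.3, 18.8 and 17.9 RPKM, lower in each glutamine-free library, with Arrdc1 (-1.23) and Arrdc3 (-0.73), while Mlxip, which encodes MondoA, was at 0.36. In insulin and FoxO signalling 16 of 22 genes were lower and 5 higher, with Foxo1 at -1.06, Foxo3 at 0.37, the FoxO target Ccng2 at -1.34 and the binding protein gene Igfbp7 falling from 96.1, 98.9 and 98.7 to 11.2, 11.9 and 11.6 RPKM.

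Cholesterol genes fell together, regulators included. Of 27 tested members, 1 was called higher and 26 lower, 0 and 25 of them by at least 2-fold, with a median log2 change of -1.82. All 20 enzymes fell, 19 at least 2-fold. Acat2, which joins acetyl-CoA units at the start of the pathway, went from 102, 103 and 102 to 10.3, 9.60 and 10.1 RPKM. Sc5d had the smallest fall of the enzymes, -0.63. Srebf2, the transcription factor of the pathway, went from 108, 106 and 107 to 39.6, 42.1 and 41.9 RPKM, Srebf1 was at -1.04, and only Scap, the escort of both, was higher (0.43). Fatty acid genes fell less evenly: 11 of 13 were lower and 5 at least 2-fold, among them the desaturases Scd2 (399, 395 and 395 to 89.8, 88.3 and 89.1 RPKM) and Fads2 (-1.94), while Fasn was at -0.27 and Acaca did not pass. Of 5 tested targets of the liver X receptors, which sense oxidised sterols, 4 were called lower and 1 higher, with a median of -1.51. Abca1 (-1.70), Mylip (-2.10) and Lpcat3 (-1.51) were among the lower ones. Apoe, from 0.193, 0.322 and 0.278 to 2.94, 2.86 and 3.14 RPKM, passed the filter through glutamine-free medium alone, so its call is no support for a rise. An 8-base core of the sterol element, TCACNCCA, was in 10.7% of 28 windows of the list and in 3.70% of all tested windows, and the CCAAT box in 67.9% and 38.6%. The match in Hmgcs1 (-2.62 on the log2 scale) is printed because that enzyme makes the first committed intermediate, again with the match in capitals.
Hmgcs1, chr13:119690178-119690257, plus strand: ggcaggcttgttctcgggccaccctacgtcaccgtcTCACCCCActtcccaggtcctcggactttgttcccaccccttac

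The matrix programme of these fibroblasts was lower from collagen chains to the enzymes that modify them. All 18 tested collagen genes were called lower, 15 at least 2-fold, with a median of -2.5. The fibrillar chain Col1a1 went from 241, 238 and 242 to 10.6, 10.9 and 11.4 RPKM, and Col1a2 from 710.1, 713 and 712 to 85.6, 88.1 and 88.7 RPKM. Their products pair in 1 trimer, and their changes were -4.33 and -3.01. The basement membrane chains Col4a1 and Col4a2 fell less, by 0.83 and 0.76, and Col18a1 by 0.14, a gene that was at 0.08 and not called under quantile normalization. All 10 tested hydroxylases of collagen and their partner proteins (Crtap and the isomerase gene Ppib) were lower, P4ha3 from 4.13, 3.98 and 3.55 to 0.135, 0.152 and 0.164 RPKM. The crosslinking enzyme gene Lox went from 301, 297 and 294 to 35.2, 34.0 and 33.4 RPKM and Loxl4 was the only gene of its list that rose (0.82). Serpinh1, the collagen chaperone, was at -0.10. Of 24 glycoproteins and proteoglycans 22 were lower, with Mgp, which inhibits calcification, from 65.6, 59.3 and 58.6 to 1.55, 1.58 and 1.37 RPKM, and Prelp from 26.8, 27.1 and 27.9 to 0.537, 0.548 and 0.614 RPKM. Of 20 proteases and inhibitors 15 were lower, among them Mmp2 (75.5, 75.7 and 76.2 to 15.8, 15.5 and 15.8 RPKM), and 5 higher, with the inhibitor gene Timp3 at 1.24 against Timp1 at -1.90.

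Genes of the contractile cytoskeleton and of growth factor signalling followed. Of 22 contractile and YAP or SRF target genes, 17 were lower and 5 higher. Acta2, smooth muscle actin, went from 44.6, 43.6 and 43.3 to 3.54, 3.74 and 3.84 RPKM, Cnn2 from 77.9, 79.7 and 76.9 to 5.45, 5.25 and 5.35 RPKM and the YAP target Cyr61 from 118, 116 and 117 to 22.7, 23.8 and 23.7 RPKM. Ankrd1, another YAP target, was higher (1.40), and Yap1 itself was at -0.23. Of 27 tested genes of the TGF-beta and BMP pathway, which drives matrix production in fibroblasts, 16 were lower and 8 higher. The ligand genes Tgfb1 and Tgfb3 went from 10.5, 9.82 and 10.3 to 1.71, 2.01 and 1.88 RPKM and from 10.5, 10.3 and 10.3 to 2.04, 2.01 and 2.06 RPKM, and Ltbp2, for a protein of the same family as the latent TGF-beta binding proteins, from 22.9, 23.0 and 22.7 to 0.670, 0.767 and 0.700 RPKM. All 8 tested growth factor receptors were lower, with Pdgfra from 34.2, 34.3 and 33.6 to 5.16, 5.05 and 5.01 RPKM and Ghr at -1.94. Ligands went both ways, 7 of 12 higher and 5 lower: Vegfd fell from 14.9, 14.8 and 14.5 to 0.565, 0.698 and 0.633 RPKM while Vegfa, Areg (1.71) and Ereg (1.27) rose.

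The cell cycle list parted by phase. In G1 control 12 of 25 genes were higher and 9 lower, with a median of 0.05. Cdkn1a (p21), which blocks cyclin-dependent kinases, was at 2.29, 2.63 and 2.94 RPKM in complete and 16.3, 15.9 and 16.0 RPKM in glutamine-free medium, and was the only 1 of 6 inhibitors that rose. Cdkn1b (p27) went from 31.5, 29.3 and 29.8 to 16.1, 15.2 and 14.7 RPKM, Cdkn2a from 109, 107 and 108 to 38.0, 41.1 and 40.8 RPKM and Cdkn2d from 16.7, 17.6 and 17.0 to 3.49, 3.73 and 3.45 RPKM. Of 30 replication genes 20 were higher and 9 lower, against 46.9% and 44.2% of all tested genes. Centring on the median ratio gave 16 and 11. The changes were small: 4 were higher and 2 lower by at least 2-fold, and the median was 0.29. Prim1 changed by 1.08 and Pold1 by -1.12. Gins2 was lower at -1.62, with 67.3% of its exon length under Gse1 on the other strand. Mitotic genes were lower in 33 of 34, 22 of them at least 2-fold, with a median of -1.13, and the exception was the transcription factor gene Mybl2 (0.80). The kinetochore genes Cenpa and Cenpf went from 53.7, 54.5 and 52.5 to 7.28, 6.94 and 6.85 RPKM and from 22.2, 22.9 and 22.4 to 2.70, 2.62 and 2.54 RPKM, and their regulator Foxm1 from 45.6, 47.5 and 47.3 to 26.8, 26.8 and 27.1 RPKM. The cell cycle homology region (CHR) has the letters TTTGAA. They were in 69.0% of 29 windows of the mitotic list, in 11.7% of all tested windows and in 13.97% of windows of the 2-fold lower genes, so the element was frequent among mitotic genes and near the background among the falls at large. A CCAAT box was in 75.9% of mitotic windows against 38.6%. Matches just after the start sites of Ccnb2 (-3.10) and Cenpa are printed as examples.
Ccnb2, chr9:70421545-70421586, minus strand: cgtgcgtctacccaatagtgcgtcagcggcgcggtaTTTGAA
Cenpa, chr5:30666866-30666907, plus strand: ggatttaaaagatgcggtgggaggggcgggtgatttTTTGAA

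In the list of p53 targets, which also holds Trp53 itself, more genes were higher than lower. Of 27 tested members, 20 were called higher and 6 lower, against 46.9% and 44.2% of all tested genes. By at least 2-fold 8 were higher and 2 lower, and the median log2 change was 0.63. In the p53-null line the median of these genes was 0.39, against 0.09 over all genes. The part of p53 in the rises was not tested. Sesn2 and Ddit4 are counted in the stress response list as well. Gadd45a, a growth arrest gene that is also a target of ATF4, went from 16.5, 19 and 18.0 to 254, 251 and 252 RPKM. Among feedback genes, Mdm2 and Ppm1d changed by 0.32 and 0.24. Of 6 apoptosis genes 4 were higher, with Bbc3 (PUMA) from 1.98, 2.10 and 2.35 to 6.08, 6.21 and 6.34 RPKM and Bax from 22.7, 21.8 and 22.9 to 40.8, 43.1 and 41.4 RPKM, and 2 lower, Fas (-1.58) and Tnfrsf10b (-0.54). Ccng1 and Phlda3, which are used as readouts of p53 activity, were lower at -0.97 and -0.85. In the BCL2 family 7 of 14 were higher and 7 lower, and only Bbc3 and Bmf (-1.48, a BH3-only killer) passed 2-fold. Immediate early genes also went both ways, 14 of 25 higher and 10 lower. Myc, on chromosome 15 (61985391 to 61990374, plus strand), went from 61.6, 61.0 and 59.4 to 342, 346 and 346 RPKM, 5.68-fold, and the 4 tested antagonists of the Mxd family fell, Mxd4 from 22.4, 22.1 and 22.3 to 6.70, 7.24 and 6.56 RPKM. Egr1, a rapid target of growth factor signals, was at -1.14. The AP-1 gene Fosl1 went from 3.38, 2.87 and 3.91 to 62.6, 63.6 and 62.6 RPKM, with 57.2% of its exon length under Ccdc85b on the other strand.

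Interferon, chemokine and complement genes were mostly lower. All 22 tested interferon response genes, of 29 found, were called lower, 16 at least 2-fold, with a median of -1.13. These counts include genes such as Ifit1, Ifit3 and Stat2, which passed the filter through complete medium alone. The effector gene Ifit1 went from 8.95, 8.86 and 9.50 to 0.158, 0.271 and 0.215 RPKM, and Ifit3 from 6.39, 6.67 and 6.39 to 0.392, 0.270 and 0.210 RPKM, near the floor of detection in all 3 libraries. Stat2, a transcription factor of the pathway, went from 7.16, 7.03 and 6.88 to 0.730, 0.840 and 0.799 RPKM, and Irf3, which is upstream of interferon itself, was at -0.31. The antigen-loading gene Tapbp went from 51.1, 51.3 and 51.2 to 11.2, 11.5 and 11.6 RPKM, whereas Cd74, the invariant chain of class II, rose from 0.935, 1.24 and 1.28 to 13.5, 15.2 and 15.6 RPKM. All 10 tested chemokines fell. Cxcl5, a neutrophil attractant, went from 207, 194 and 193 to 28.0, 23.6 and 23.6 RPKM, Ccl5 from 75.6, 69.8 and 71.0 to 7.04, 6.90 and 6.66 RPKM and Cxcl12 from 62.0, 62.0 and 62.6 to 6.88, 6.82 and 6.90 RPKM. The cytokine genes Lif and Csf1 were the 2 that rose in that list, at 0.62 and 0.84. All 9 complement and acute phase genes were lower, with C3, the central complement protein, from 120.0, 120.3 and 120.3 to 26.9, 26.6 and 27.0 RPKM and C1ra from 33.8, 35.2 and 33.5 to 1.75, 2.30 and 2.25 RPKM. Beside these, Cebpd, a transcription factor of the acute phase, went from 32.8, 31.9 and 31.1 to 1.45, 1.38 and 1.53 RPKM, and Nos2, the inducible nitric oxide synthase that uses arginine, from 31.2, 31.1 and 30.6 to 1.6, 1.34 and 1.48 RPKM. A core of the interferon-stimulated element, AAANNGAAA on either strand, was in 50% of 22 windows of the interferon list, 7.32% of all tested windows and 9.36% of windows of the 2-fold lower genes. The stretches of Ifit1 and Ifit3 show 2 matches each, read here as the reverse complement.
Ifit1, chr19:34640749-34640829, plus strand: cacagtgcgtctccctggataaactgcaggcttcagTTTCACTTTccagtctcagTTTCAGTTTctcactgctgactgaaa
Ifit3, chr19:34583337-34583417, plus strand: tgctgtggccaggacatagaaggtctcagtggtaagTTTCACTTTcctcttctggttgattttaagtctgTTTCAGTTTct

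**Figure D3:**
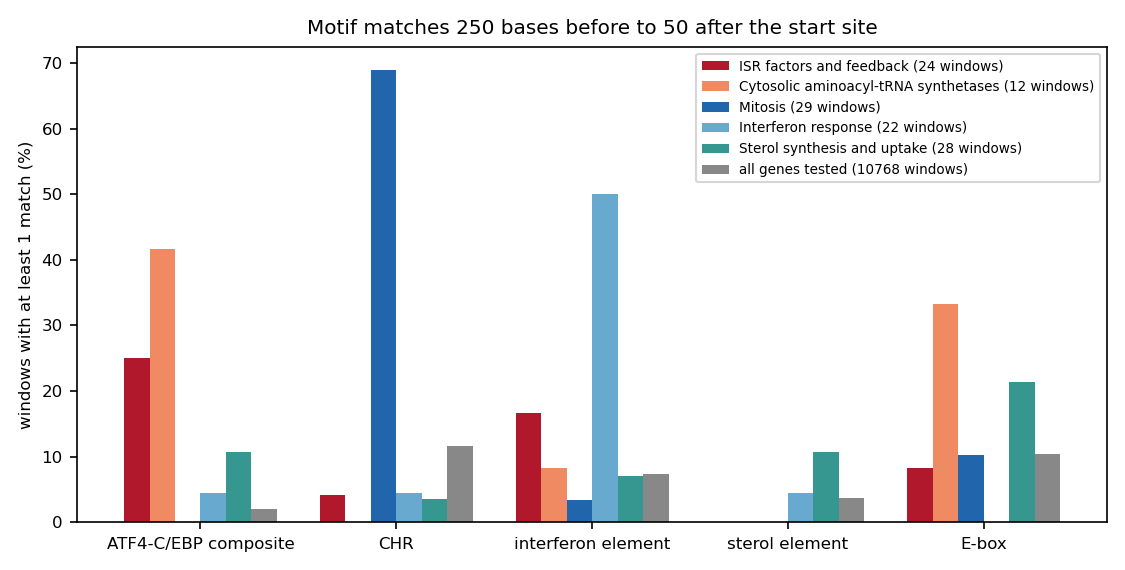
Bars give the percent of RefSeq promoter windows (250 bases before to 50 after the start site) with at least 1 match on either strand, for 5 motifs and 6 gene sets, with the number of windows in the key. The ATF4-C/EBP element reaches 25% and 41.7% in the stress and synthetase lists, CHR 69.0% in mitosis and the interferon element 50% in the interferon list, against 2.11%, 11.7% and 7.32% of all tested windows.

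Central carbon genes were lower or close to level. In glycolysis and the pentose phosphate path 18 of 24 were lower and 4 higher, 8 and 1 at least 2-fold. Aldoa and Hk1 went from 241, 236 and 237 to 75.6, 79.7 and 78.6 RPKM and from 34.0, 33.6 and 33.6 to 11, 11.1 and 10.4 RPKM, Hk2 was the 1 glycolytic gene that rose (1.5), and the glucose carrier Slc2a1 did not pass (0.02). Of 20 enzymes listed for the cycle, cytosolic forms included, 15 were lower and 5 higher. Only 2 changed by 2-fold, both cytosolic forms: Idh1, from 33.9, 33.8 and 33.3 to 6.21, 5.73 and 6.06 RPKM, and Mdh1, at -1.16. Of 7 enzymes that link the cycle to pyruvate or phosphoenolpyruvate (Pcx, Pdha1, Pdhb, Dlat, Pck2, Me1 and Me2), 6 were higher, by 0.25 (Dlat) to 0.47 (Pdhb). Pcx was lower (-0.98). No respiratory chain gene of 23 reached 2-fold, with Ndufa4 at -0.72 and Cox5a at 0.62. Fatty acid oxidation genes fell in all 6 tested, Cpt1a from 9.19, 9.57 and 8.94 to 1.25, 1.04 and 1.04 RPKM. Hypoxia genes went both ways, 8 of 20 higher and 9 lower, with Vegfa, Ndrg1 (1.95) and Ero1l (2.36) higher, Adm (-1.45) and P4ha1 (-1.11) lower, and Hif1a at -0.11. Of 18 demethylases that use 2-oxoglutarate 12 were higher and 6 lower, led by Kdm4a (1.34) and Jmjd6 (1.15).

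Redox and protein folding genes moved both ways. Nfe2l2, which encodes NRF2, was at 0.70. Of 8 glutathione genes 4 were higher and 3 lower, and of 8 antioxidant genes 5 were higher and 3 lower. Gclc, Txnrd1 and Hmox1 were among those that rose, by 1.93, 1.66 and 1.81, and Gpx1 and Prdx1 among those that fell, at -0.56 and -0.36. Of 9 glutathione transferase genes 8 fell. Gstt1 went from 66.0, 67.6 and 67.7 to 2.79, 2.22 and 2.55 RPKM and Gstt3 from 9.56, 10.6 and 9.92 to 1.08, 0.933 and 0.747 RPKM, and Gsto1 rose (2.12). In the endoplasmic reticulum 11 of 23 genes were higher and 10 lower. The stress sensors Ern1 and Atf6 went from 4.86, 4.71 and 4.55 to 28.8, 29.4 and 28.8 RPKM and from 6.39, 6.17 and 5.78 to 26.8, 26.1 and 26.3 RPKM, Hyou1 and Hspa5 rose by 1.47 and 1.36, and Pdia6 (-1.28) and Xbp1 (-0.59) fell. Cytosolic heat shock genes were also mixed: the chaperone Hsp90ab1 fell from 1246, 1244 and 1265 to 479.7, 485 and 485 RPKM while Hspa4 rose (1.21), with Hsf1 at -0.16. Among iron genes the metalloreductases diverged, Steap4 falling from 32.9, 31.8 and 31.4 to 0.811, 0.767 and 0.792 RPKM and Steap1 rising from 14.5, 14.3 and 14.2 to 47.0, 45.3 and 48.0 RPKM.

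In the shorter lists, members moved both ways. Polyamine synthesis rose in 3 of 4 genes, Amd1 by 1.25 and Srm by 1.10, and Sms fell. The glutamine amidotransferases, which use glutamine as nitrogen donor, were not uniform: Asns, Ppat (1.03), Pfas (0.97), Gmps (0.67) and Cad (0.51) were higher, Ctps did not pass (0.03), and Ctps2 (-1.58) and Gfpt1 (-0.73) were lower. In the clock, the repressor gene Ciart rose from 1.99, 1.79 and 1.82 to 31.5, 31.0 and 30.2 RPKM and Nr1d1 from 8.50, 8.13 and 9.08 to 20.1, 20.9 and 20.2 RPKM, while the output gene Dbp fell from 11, 10.6 and 10.6 to 1.39, 1.31 and 1.39 RPKM and Per3 from 11.4, 11.5 and 11.6 to 2.20, 2.31 and 2.26 RPKM. The activators Clock and Arntl changed by 0.59 and 0.61. Of 13 tested histone genes 11 were lower, and most histone mRNAs that are made in S phase carry no poly(A) tail. Rmrp and Rpph1, non-coding RNAs that also lack the tail, were lower in the same libraries, at -0.85 and -1.39, and the part of RNA selection in the histone values was not tested. Among the 20 largest falls outside the lists were Cbr2, a carbonyl reductase (57.6, 60.1 and 61.9 to 1.90, 1.76 and 1.54 RPKM), Olfml3 (-4.34), Galnt15 (-3.78), Ly6c1 (-3.76), Ccdc80 (-3.68), the tubulin gene Tubb2a (82.3, 85.3 and 83.7 to 5.20, 5.89 and 6.04 RPKM), the insulin receptor adaptor Grb14 (-3.63) and extracellular superoxide dismutase Sod3 (134, 134 and 134 to 10.1, 10.2 and 9.90 RPKM).

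**Figure D4:**
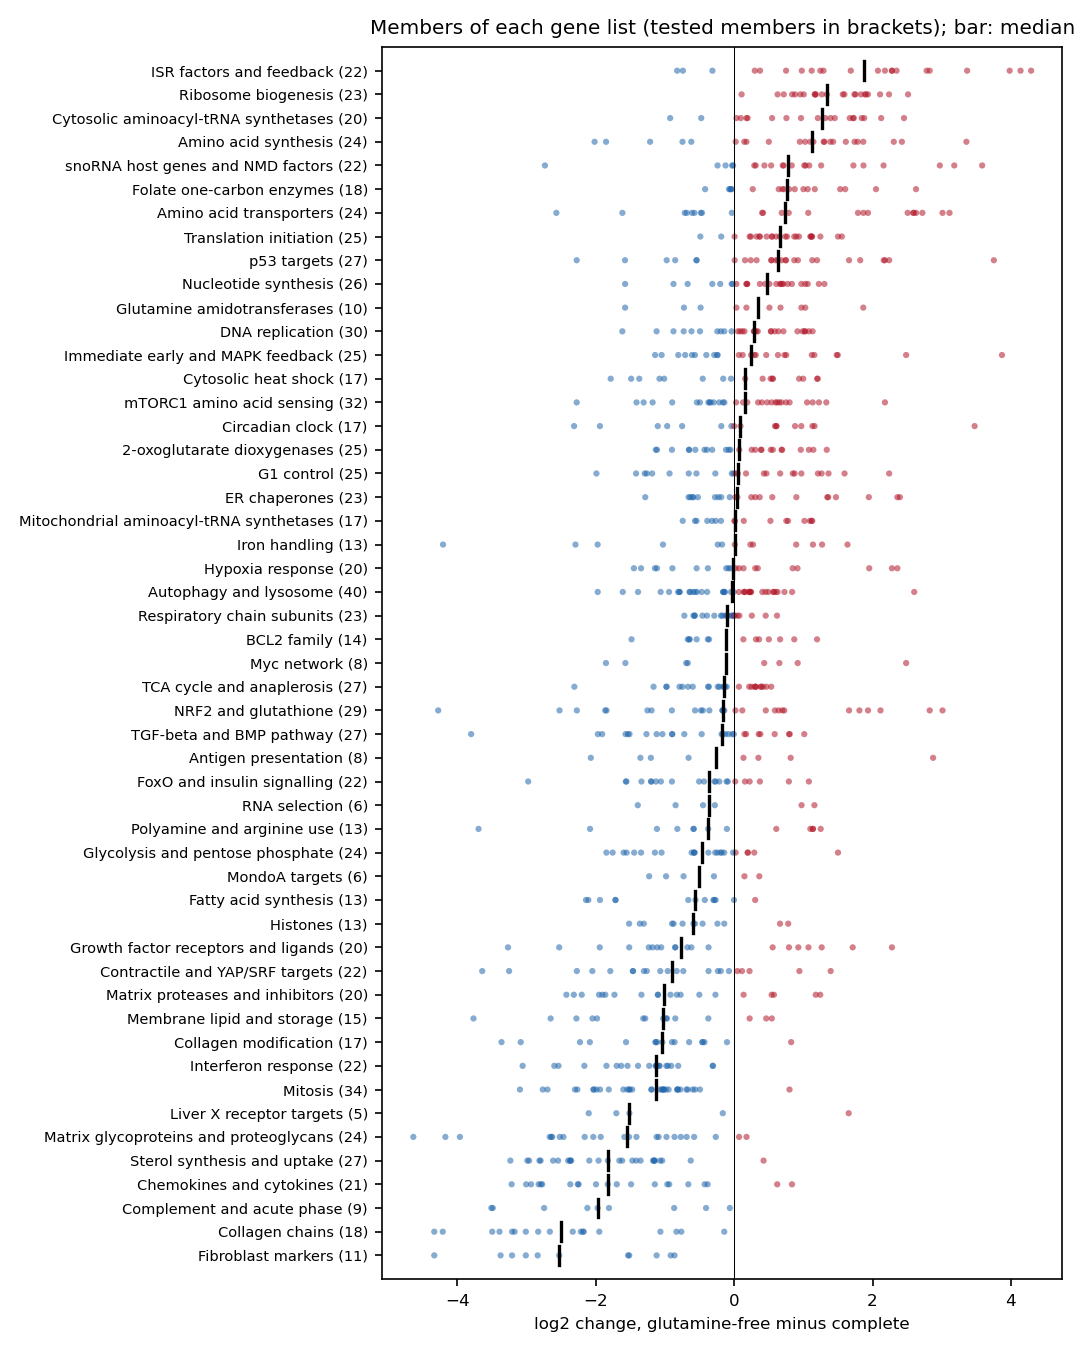
Each row is a gene list with at least 5 tested members, each point the log2 change of a member (red above 0, blue below), and the black bar the median, with lists ordered by median. The stress, ribosome and synthetase lists sit at the top with medians over 1, and the collagen and fibroblast marker lists at the bottom near -2.5, while mTORC1, autophagy and endoplasmic reticulum lists spread to both sides of 0.

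The response of WT cells was compared with that of the p53-null line by the difference of the 2 changes, in a fit over all 12 libraries. With 1 line per genotype this compares 2 lines, and p53 and any other difference between them cannot be told apart. Of 11461 genes the difference was called for 9727 (84.9%), positive for 4404 (38.4%) and negative for 5323 (46.4%). In the p53-null line 379 genes passed the 2-fold count (3.31%). The 2 sets below were picked by their WT change in these same libraries, so a larger change in WT was favoured in advance. Genes near 0 RPKM in p53-null cells could not fall there. The counts and medians of the sets are therefore a description. Of the 1117 genes at least 2-fold higher in WT cells, 957 were also called higher in p53-null cells, 84 of them at least 2-fold, 93 were not called and 67 were called lower, and the WT change was the larger by the test of the difference for 1102. The medians of the 1117 were 1.29 and 0.47. Of the 1476 genes at least 2-fold lower, 1038 were called lower in p53-null cells, 128 at least 2-fold, 295 were not called and 143 were called higher, with the larger change in WT for 1440 and medians of -1.41 and -0.29. The shares of all genes called higher or lower in the p53-null line are not given here. Without them, the counts called in the same direction cannot be read as agreement between the lines. Directions were opposite in both lines, with a called difference, for 1916 of the 10882 genes.

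The largest differences came with different levels in p53-null cells. Car6, Avil, Cdsn and Angptl6 were already read in p53-null cells in complete medium, at 9.39 ± 0.57, 9.18 ± 0.24, 51.4 ± 1.6 and 7.04 ± 0.41 RPKM (mean ± SD, n = 3), with changes without glutamine of 0.20, 0.14, 0.26 and 0.19 in that line, and the differences were 6.01 ± 0.068, 5.80 ± 0.046, 4.32 ± 0.044 and 3.78 ± 0.062 (SE). The WT glutamine-free levels of all 4 were above those of every p53-null library. On the other side, Gstt1, Steap4, Galnt15 and Nos2 were at or under 0.0919 RPKM on average in both p53-null groups, so their differences, -4.22 ± 0.073, -4.20 ± 0.040, -3.75 ± 0.071 and -3.68 ± 0.051, are those of genes that the p53-null line did not read. Others were read in both lines: Col1a1 fell in p53-null cells too, from 168 ± 3.3 to 103 ± 2.1 RPKM (-0.70, difference -3.63 ± 0.034), and Trib3 rose there from 45.1 ± 0.60 to 95.3 ± 0.55 RPKM (1.06, difference 3.23 ± 0.077). Ccdc80 was at 3.06 ± 0.17 and 3.12 ± 0.015 RPKM in p53-null cells, where its change was not called (0.03, difference -3.70 ± 0.044). Acta2 fell alike in size, by 3.25 in WT and 3.08 in p53-null cells, although the difference of -0.17 ± 0.038 was still called (adjusted p = 9.4e-04). Idh1 (-2.31 and -2.05) and Ier2 (1.5 and 1.35) were also close. Txnip went in opposite directions: in p53-null cells it rose from 16.9 ± 0.56 to 77.8 ± 0.77 RPKM, a change of 2.14 against -0.98 in WT cells. The same held for Cyr61 (-2.27 in WT and 0.54 in p53-null cells), Mxd4 (-1.57 and 0.69), Wipi1 (-1.97 and 0.21), the CASTOR1 gene Gatsl3 (-1.41 and 0.31), P4ha2 (-1.13 and 0.49) and Foxo1 (-1.06 and 0.31). Bax and Slc7a3 were higher in WT and lower in p53-null cells, at -0.59 and -0.50 in the latter. Slc7a3 was low in p53-null cells in both media, at 1.06 ± 0.14 RPKM in complete and 0.459 ± 0.073 RPKM in glutamine-free medium. Its WT call came through the filter by glutamine-free medium alone, so its opposite directions are given as a description.

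**Figure D5:**
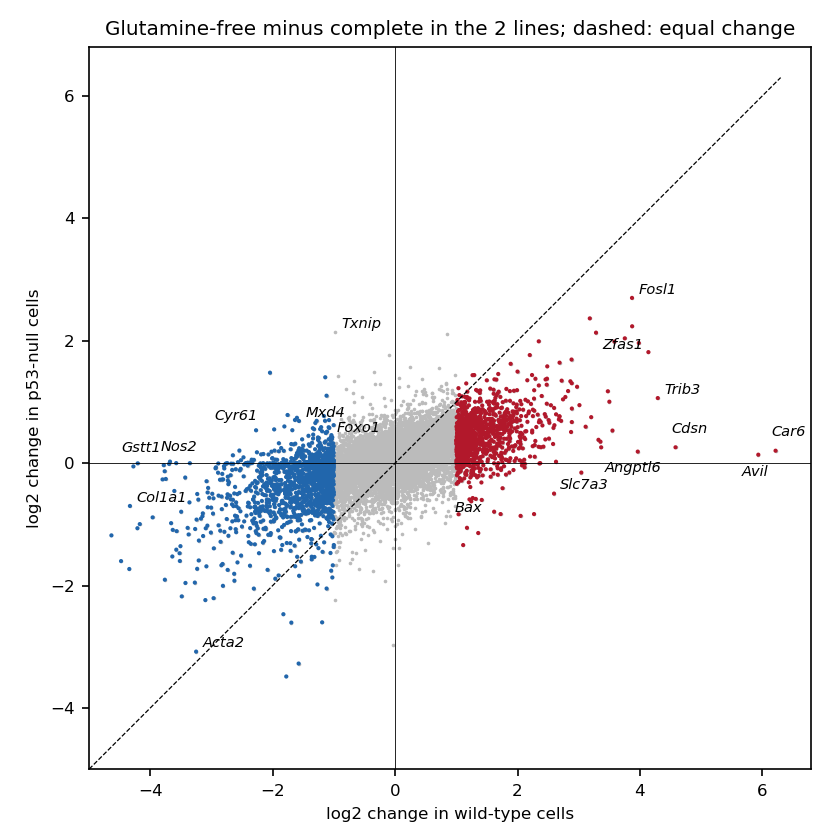
Each point is 1 gene tested in both fits, with its log2 change without glutamine in WT cells (horizontal) and in p53-null cells (vertical). Red and blue mark genes called at least 2-fold higher or lower in WT cells, and the dashed line marks equal change. Most coloured points lie between the horizontal axis and the dashed line, a position favoured by picking them on their WT change. Car6, Avil, Cdsn and Angptl6 lie near the horizontal axis, Acta2 lies near the dashed line, and Txnip stands above the axis on the side of WT falls.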

How the data were processed

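Poly(A) RNA libraries of 2 lines in 2 media were sequenced. The authors deposited 1 table of RPKM values, made with CASAVA 1.8, HISAT2 2.0.4, Partek and the mm10 build, per the submitters' processing notes; the annotation used is not given in the sources used here, nor are the counting settings. Of its 19439 entries, 26 had names turned into dates and 4 shared a name with another entry.

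From these values log2(RPKM + 1) was computed and fitted with limma 3.58.1 in R 4.3.3 (moderated variances with a mean trend, Benjamini-Hochberg adjustment), on the 6 WT libraries for genes at 1 RPKM or more in at least 3 of them, and on all 12 for the difference between lines. The procedure was tested on simulated data with 200 changed genes and independent noise in each library. In the real data 91.1% of the 10882 tested genes were called. The simulation differs from the data in this, so it does not check these calls. RPKM holds no read totals. Steps of low values pointed to 37.7 M to 43.8 M reads a library, but only 56.1% to 60.8% of values came out whole within 0.05 reads, so no counts were recovered and no count model was run.

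Named genes were Trp53 and Slc7a3, the 20 largest rises and 20 largest falls with a mean of 2 RPKM or more and no overlap, up to 4 members of each list with the largest called change, the regulators of each pathway, and the 6 largest differences in each direction. Other genes given as examples were chosen after their values were seen. The comparison, the lists (58, with 1143 of 1157 symbols found) and the rules were chosen with earlier results of these data known. Gene positions are from GENCODE M21, which has a model for 18841 entries, and promoter windows from RefSeq (GRCm38.p6), found for 8451 of the 10882 tested genes. The library kit marks no strand, so reads of genes that overlap on opposite strands cannot be told apart. Alternatives covered the pseudocount, filter, scaling, variance trend, replicate block and each library left out. A few members of the lists are counted but not reported here by name.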

Additional observations from a re-analysis of the deposited data

Results flagged for a closer look

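These genes stood out because the WT and p53-null lines responded differently by the test of the difference of their log2 changes (limma, all 12 libraries), and either had the largest differences or were called in opposite directions in the 2 lines. Values are the WT change minus the p53-null change. The largest positive differences were those of Car6 (6.01), Avil (5.80), Cdsn (4.32), Angptl6 (3.78), Trib3 (3.23) and Cox6a2 (3.20), and the largest negative ones those of Gstt1 (-4.22), Steap4 (-4.20), Galnt15 (-3.75), Ccdc80 (-3.70), Nos2 (-3.68) and Col1a1 (-3.63).

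Opposite directions, higher without glutamine in WT and lower in p53-null cells, were found for Slc7a3 (3.09), Neat1 (1.51), Bax (1.46), Eif5 (1.45) and Cox5a (0.76). The reverse was found for Txnip (-3.12), Cyr61 (-2.81), Mxd4 (-2.26), Wipi1 (-2.18), Ccng2 (-1.81), Gins2 (-1.74), Gatsl3 (-1.72), P4ha2 (-1.63), Tnnt2 (-1.43), Foxo1 (-1.37), P4ha1 (-1.34), Arrdc3 (-1.09), Foxm1 (-1.07) and Sgce (-0.73). Car6, Avil, Cox6a2, Slc7a3, Steap4, Galnt15 and Tnnt2 passed the WT filter through 1 medium alone. Their WT calls are no support for a difference, and their values here are a description. The part of the base levels of the 2 lines in these differences was not tested.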

How the results depend on the processing

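Of 106 counts recomputed under the alternatives, 105 stayed within 1.5 times their value. The exception was the number of genes at least 2-fold lower, which was 954 in place of 1476 when a mean of 5 RPKM was asked for, with 7901 genes tested. Leaving out each library gave 5027 to 5100 genes called higher and 4726 to 4784 lower, 1109 to 1123 and 1456 to 1482 at least 2-fold, and differences between lines of 4313 to 4408 positive and 5236 to 5294 negative. Centring on the median ratio gave 4510 higher and 5406 lower, 895 and 1685 at least 2-fold. Quantile normalization gave 5273 and 4685, 1158 and 1348 at least 2-fold. With a pseudocount of 0.1, 1417 genes were at least 2-fold higher and 1862 lower.

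Of the recomputed changes of named genes 1 reversed, that of Map2, from -0.10 to 0.15 under quantile normalization (adjusted p = 0.0065 in limma), and it missed the threshold without 4 of the 6 libraries, at -0.10 to -0.09. Of the 934 called list members, 16 changed sign under quantile normalization or centring. Of these, 5 were then called in the other direction: Map2, Ndufs1 (0.05 to -0.08) and Idh3b (0.07 to -0.05) under quantile normalization, Flna (0.05 to -0.05) under centring, and Mcm4 (0.05 to -0.05) under both, with Ndufs1 at -0.05 under centring. Of the recomputed list medians, 183 moved by at least their spread between libraries, 709 did not and 3 reversed. Centring moved 53 and left 3, and quantile normalization moved 37 and left 19, so the sizes of list medians depend on the scaling. The reversals came with a mean of 5 RPKM asked for. The median of the Myc network list was then 0.43, of antigen presentation 0.13 and of the non-polyadenylated and nuclear RNA list 0.35, each negative otherwise, from fewer genes. Libraries with the same replicate number did not deviate together (correlations of 0.0176, 0.0151 and 0.0509 over genes), so numbers were not taken to pair them. A fit with replicate number as a block called 5112 genes higher and 4811 lower, 1117 and 1476 at least 2-fold, and differences of 4398 positive and 5313 negative. Without read totals no counting interval could be given, and genes near 0 RPKM have no stated detection limit.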
